A study of Saccharomyces cerevisiae with 56 samples.

Results

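The mitochondrial genome of budding yeast (Saccharomyces cerevisiae) encodes 8 proteins of known function, and these were followed here at the level of mRNA and of ribosome footprints (the mRNA fragments that a ribosome shields from nuclease digestion). The members were chosen by name, as COX1, COX2, COX3, COB, ATP6, ATP8, OLI1 and VAR1, and were 8 of the 7137 genes in the files. All 8 carried an identifier of the mitochondrial (Q0) series, which the rule for choosing them also required. Each of the 28 biological samples gave 1 mRNA library and 1 footprint library, so the series held 56 libraries, and no condition had a second sample. The sampling covered a chemostat culture and batch cultures. In the chemostat, the prototrophic MATa strain CEN.PK was sampled at 16 time points over 1 yeast metabolic cycle (YMC), a self-sustained oscillation in oxygen use, and every sample received cycloheximide (CHX), an inhibitor of the cytosolic ribosome. In batch culture, 6 pairs of samples set cells starved of amino acids for 20 min in minimal SD medium against replete cells in the supplemented medium. All batch strains were MATa his3Δ1 leu2Δ0 met15Δ0 ura3Δ0, and CHX was added to 5 of the 6 pairs. Those 5 pairs came from yJW1864 (dot6::LEU2 tod6::URA3 stb3::kanMX6, lacking 3 repressors of ribosome biogenesis genes according to its label), from BY4741, from yJW1861 (NOP2 driven by the CCW12 promoter at yhrcdelta14), from yJW1862 (NOP2 driven by its own promoter) and from yJW1863 (EGFP with ADH1 untranslated regions driven by the NOP2 promoter). In yJW1861 and yJW1862 the native NOP2 gene was replaced by klNOP2. BY4741 was also starved or kept replete without CHX. The CHX-treated cells were harvested by centrifugation and the untreated cells by filtration, so CHX and the way of harvest cannot be told apart.

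Mitochondria keep a small genome, transcribed by their own RNA polymerase and translated by their own ribosomes. The 8 proteins fall into 4 groups by their roles. Cox1, Cox2 and Cox3 form the catalytic core of cytochrome c oxidase (complex IV), the last enzyme of the respiratory chain. Cob is cytochrome b, the mitochondrially encoded subunit of the cytochrome bc1 complex (complex III). Atp6, Atp8 and Oli1 (subunit 9) lie in the membrane part of ATP synthase, where Oli1 forms the rotating ring and Atp6 the proton path beside it. Var1 is a protein of the small subunit of the mitochondrial ribosome. All other subunits of these complexes are encoded in the nucleus and imported, and translation of each mitochondrial mRNA depends on nuclear-encoded activators dedicated to it, such as Pet111 for COX2 and Cbs1 for COB. CHX does not stop the mitochondrial ribosome.

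All 8 genes lie on chromosome MT of the R64 (sacCer3) assembly. COX1 spans 13818 to 26701 and COB spans 36540 to 43647, and both contain introns with reading frames of their own. ATP8 (27666 to 27812) and ATP6 (28487 to 29266) follow COX1. OLI1 lies at 46723 to 46953, VAR1 at 48901 to 50097, COX2 at 73758 to 74513 and COX3 at 79213 to 80022. The authors counted reads over coding bases after leaving out part of each coding region, for most genes 108 bases. Only 33 were left out in yJW1861, yJW1862 and yJW1863, which make up 12 libraries, against 44 of the other kind. For ATP8 this left 39 counted bases in the 44 libraries and 114 in the 12, and for OLI1 it left 123 and 198. COX1 kept 1395 bases in both. Levels are given as RPKM, reads scaled to the counted length and to the depth of the library, and translation efficiency (TE) is footprint RPKM divided by mRNA RPKM.

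Footprint libraries held 10133399 to 27429226 counted reads in the YMC and 3632217 to 20036606 in batch culture, and mRNA libraries held 14537913 to 23693465 and 9648356 to 14773359. The 8 genes took 0.434% to 1.75% of the mRNA reads in the YMC and 0.183% to 0.411% in batch culture. They took a far smaller share of the footprints, 0.00435% to 0.0354% in the YMC and 0.0132% to 0.0728% in batch culture. Counting intervals given with single samples below cover counting error only. The deleted genes served as a check of the yJW1864 label. DOT6 had 4 to 9 and TOD6 had 0 to 1 mRNA reads in the yJW1864 libraries, against 2312 to 4878 and 58 to 1025 in the other batch libraries. STB3 had 921 to 1062 mRNA reads in the yJW1864 libraries and 736 to 1624 in the others, which goes against its labelled deletion. These samples are therefore called the libraries labelled yJW1864.

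The genes differed widely in mRNA level. The order by RPKM was OLI1, COX1, COX2, then COX3 and COB, then ATP6. OLI1 mRNA had a median of 4410 RPKM over the YMC, COX1 1663, COX2 778, COX3 638, COB 534 and ATP6 181. OLI1 was above COX1 in all 16 YMC libraries and all 12 batch libraries, whereas COX3 and COB changed places, with COX3 the higher in 12 of 16 YMC libraries and in 2 of 12 batch libraries. ATP8 and VAR1 were hardly seen in the mRNA libraries. ATP8 mRNA had 0 to 6 reads per YMC library, and VAR1 mRNA had 8 to 172. Over the 12 batch samples ATP8 had 5 mRNA reads beside 607 footprints, and VAR1 had 230 beside 717. These 2 genes are therefore not ranked by mRNA level, and the reason for their few mRNA reads was not tested. Counting 0 reads in the 12 mRNA libraries where ATP8 had none allows a level of up to 1.51 to 4.24 RPKM (3 reads). ATP8 and VAR1 therefore missed the minimum mRNA read count set for TE and for the tests, and 6 of the 8 genes entered them.

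Over the metabolic cycle the mRNAs of the 6 genes moved together, and their joint share of the mRNA reads was highest at time points 6 and 7 of the RC phase. It was 1.75% and 1.66% there, where dissolved oxygen was 73.4% and 72.6%, but it did not follow oxygen throughout, with 0.453% at time point 2 (62.9% oxygen) and 1.03% at time point 15 (35.6% oxygen). COX1 mRNA had 3567 RPKM at time point 6, in the reductive charging (RC) phase, and 941 RPKM at time point 16, in the reductive building (RB) phase, a ratio of highest to lowest of 3.79. COX2 mRNA ran between 384 RPKM at time point 11, in the oxidative (OX) phase, and 1483 RPKM at time point 7, a ratio of 3.86. COX3 mRNA ran between 358 RPKM at time point 11 and 1221 RPKM at time point 6, a ratio of 3.41. The complex III and ATP synthase genes covered wider ranges than these complex IV genes. COB mRNA ran between 200 RPKM at time point 2 and 1520 RPKM at time point 6, a ratio of 7.62. ATP6 mRNA had the widest range of the 6, between 36.0 RPKM at time point 2 and 491 RPKM at time point 7, a ratio of 13.6. OLI1 mRNA ran between 1160 RPKM at time point 11 and 9644 RPKM at time point 6, a ratio of 8.31. The median ratio was 5.74 for the 6 genes and 2.72 over the 4838 genes that met the minimums at all 16 time points. The time points were single samples, so neither ratio has a replicate check.

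**Figure D1:**
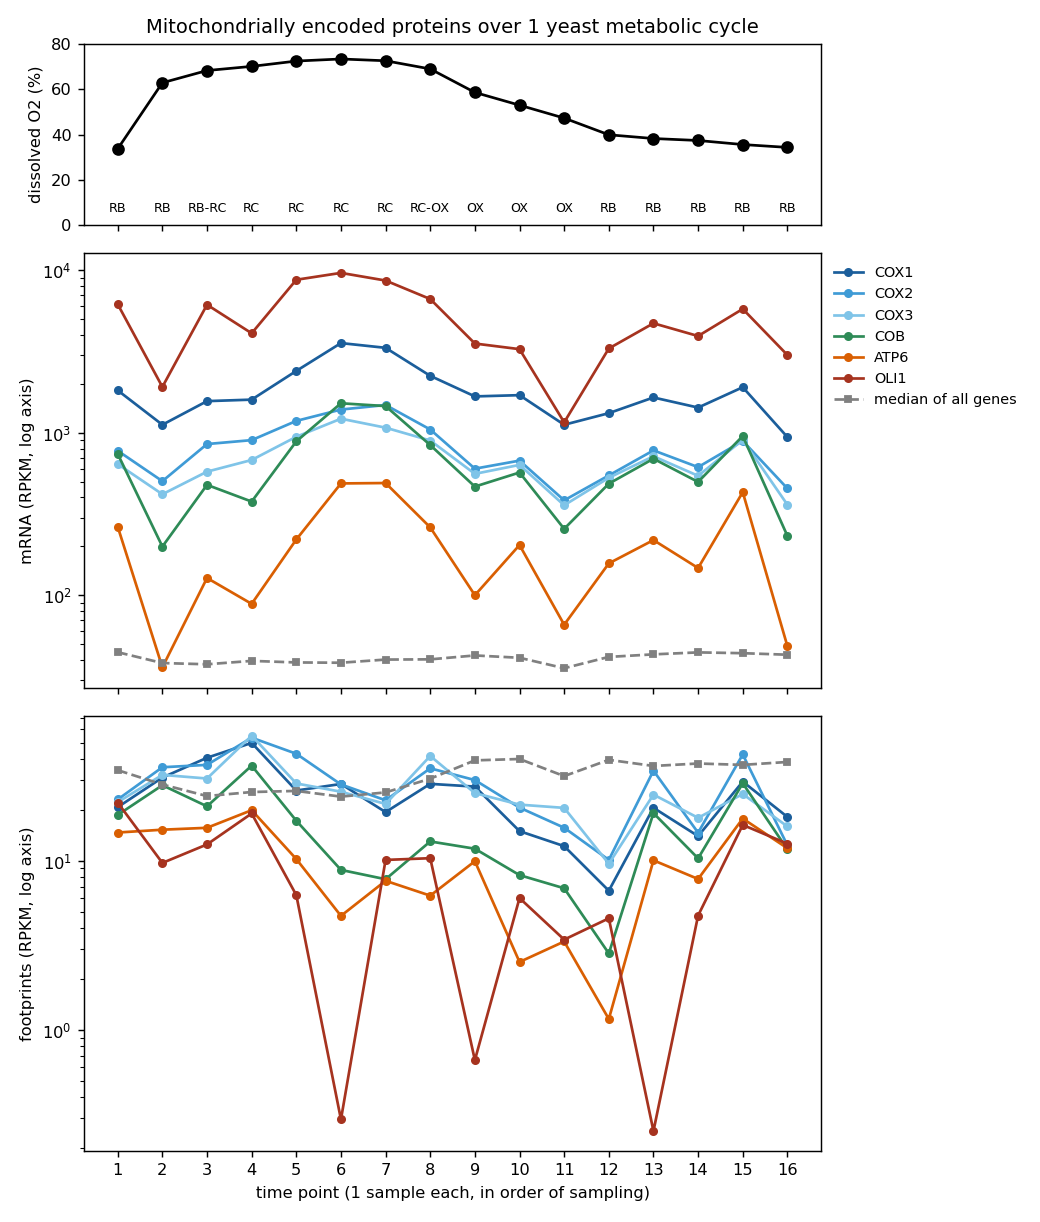
Dissolved oxygen (%, as given by the authors, top), mRNA level (RPKM, log axis, middle) and footprint level (RPKM, log axis, bottom) of 6 mitochondrially encoded genes at the 16 YMC time points, with 1 sample per point. The dashed line is the median over the 4838 genes that met the minimums, and RB, RC and OX are the reductive building, reductive charging and oxidative phases. The mRNA lines peak at time points 6 and 7, while 5 of the 6 footprint lines peak at time point 4 and reach their low at time point 12.

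Footprints of the same genes followed another course. COX1, COX2, COX3, COB and ATP6 all had their highest footprint level at time point 4 and their lowest at time point 12, the first sample of the RB phase after the oxidative burst. COX1 footprints had 49.8 RPKM at time point 4, a median of 23.4 RPKM and 6.65 RPKM at time point 12, a ratio of highest to lowest of 7.48 (95% counting interval 6.68 to 8.40). COX2 ran between 10.1 and 53.4 RPKM, a ratio of 5.28, and COX3 between 9.59 and 54.9 RPKM, a ratio of 5.72. COB ran between 2.83 and 36.5 RPKM, a ratio of 12.9, and ATP6 between 1.16 RPKM (27 reads) and 19.9 RPKM (429 reads), a ratio of 17.2 with an interval of 11.6 to 26.4. The COB and ATP6 ranges were again the wide ones among these 5 genes. OLI1 went its own way, with 22.1 RPKM at time point 1 and 0.25 RPKM at time point 13, where it had 1 read. Its ratio of 87.5 rests on that read and has a counting interval of 15.3 to 3491. The median ratio was 10.2 for the 6 genes and 3.93 for all genes. That of the 6 genes was 4.82 without time point 12, and it was 5.72 over COX1, COX2 and COX3, the genes that kept a footprint minimum as high as the mRNA minimum at every time point.

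ATP8 and VAR1 were also thin among the YMC footprints. ATP8 had no footprint at 11 of the 16 time points and at most 14 reads (17.1 RPKM, time point 15), counted over 39 bases. VAR1 footprints ran between 0 reads at time point 12, which allows up to 0.101 RPKM, and 24 reads at time point 6 (1.09 RPKM), with a median of 0.54 RPKM. VAR1 mRNA ran between 0.30 RPKM at time point 11 (8 reads) and 7.29 RPKM at time point 3 (172 reads).

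Because mRNA and footprints moved apart, the TE of the 6 genes covered wide ranges. Their median TE was lowest at time point 12 (0.0066) and highest at time point 2 (0.0739), while the median TE of all genes stayed between 0.67 and 1.03. COX1 TE ran between 0.0050 at time point 12 and 0.0311 at time point 4, a ratio of 6.18. COX2 and COX3 had ratios of 4.61 and 4.45. The genes of complex III and of ATP synthase again covered the wider ranges. COB TE was 0.140 at time point 2 and 0.0053 at time point 7, a ratio of 26.3 with a counting interval of 22.9 to 30.2. ATP6 TE was 0.423 at time point 2 and 0.0074 at time point 12, a ratio of 57.4 with an interval of 38.2 to 86.3. OLI1 TE had a ratio of 165, whose interval of 22.5 to 1218 reflects the 1 footprint at time point 6. The median ratio was 16.3 for the 6 genes and 2.18 for all genes, and it was 4.61 over COX1, COX2 and COX3 alone, the genes with enough footprints at every time point. A smaller ratio than that of COB was found in 99.5% of the 4838 genes. How fully footprints of the mitochondrial ribosome were recovered relative to those of the cytosolic ribosome was not measured. Whether that recovery varied among libraries was not measured either, and the authors selected footprint fragments by length. TE values are best read within a gene, and the part of recovery in differences across samples was not tested.

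**Figure D2:**
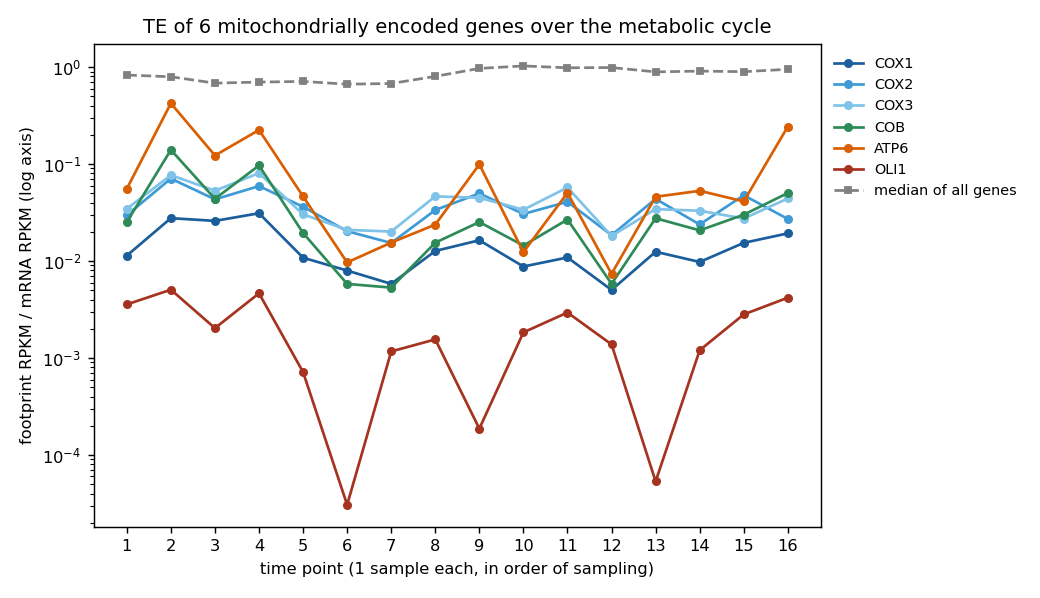
Translation efficiency (footprint RPKM divided by mRNA RPKM, log axis) of 6 mitochondrially encoded genes at the 16 YMC time points, with 1 sample per point, and the median of all genes as a dashed line. All 6 genes lie below the all-gene median of 0.67 to 1.03 at every time point, ATP6 and COB have the highest values of the 6 at time point 2, and OLI1 rests on 1 footprint at time points 6 and 13.

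Described as correlations of log2 RPKM over the 16 time points, which share libraries and depth, the 15 pairs of the 6 mRNAs had Pearson r of 0.80 to 0.98, with a median of 0.89. The 15 footprint pairs had r of 0.04 to 0.92, with a median of 0.77, and the 10 pairs without OLI1 had r of 0.62 to 0.92. Within a gene, mRNA and footprints were related weakly or not at all. The r between them was 0.28 for COX1, 0.54 for COX2, 0.32 for COX3, -0.10 for COB, -0.13 for ATP6 and -0.04 for OLI1, against a median of 0.87 over the 4838 genes. Between RC time point 4 and OX time point 11, after subtraction of the median of all genes, the 6 genes were higher at time point 4 by 1.65 to 2.82 (log2) in footprints, by 0.84 to 2.50 in TE and by 0.30 to 1.70 in mRNA. Large differences were common between these 2 samples. Past 2-fold in either direction were 49.6% of the 4838 genes in footprints, 15.0% in TE and 37.1% in mRNA.

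The nuclear genes whose pattern was most like that of the members, by r with the mean of the members' centred log2 RPKM over 16 time points, were THG1 (r = 0.93), RIF2 (0.92), NEJ1 (0.91), PEX27 (0.87) and SPP2 (0.87) for mRNA. For footprints they included PLB2 (0.78), ALK1 (0.78), HSK3 (0.74) and EHD3 (0.74). These values, the highest among all genes compared, are a description, and none of the genes named was on the lists of nuclear partners. The partners' mRNAs had little relation to those of the members. The r between the mean course of the members and that of the nuclear-encoded subunits was -0.09 for complex IV, -0.10 for complex III and -0.16 for ATP synthase in mRNA, and it was 0.40, 0.33 and 0.31 in footprints. COX4, a structural subunit of complex IV, had its highest mRNA level at time point 13 (534 RPKM) and its lowest at time point 11 (120 RPKM). CYT1, cytochrome c1 of complex III, was likewise highest at time point 13 (702 RPKM) and lowest at time point 11 (151 RPKM). ATP2, the beta subunit of the ATP synthase head, was highest at time point 1 (2237 RPKM) and lowest at time point 11 (391 RPKM). The median TE ratio of highest to lowest was 1.63 for the 8 nuclear complex IV genes, 1.55 for the 8 complex III genes and 1.44 for the 15 ATP synthase genes. The other nuclear lists had wider ranges, with 3.35 for 16 activator genes, 3.27 for 12 RNA-handling genes and 2.45 for 76 mitochondrial ribosomal protein genes. The ratio was 16.3 for the 6 mitochondrial genes and 4.61 for COX1, COX2 and COX3 alone. The 8 intron and other mitochondrial reading frames had a median of 23.9. Most of them overlap COX1 or COB in span and may share their reads, so they are not a separate comparison.

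Starvation for amino acids was compared with replete growth in BY4741, yJW1861, yJW1862 and yJW1863, each pair treated with CHX, in a fit that kept strain as a blocking factor. The mRNAs of all 6 tested genes rose modestly. COX1 mRNA had 496, 435, 475 and 439 RPKM in starved BY4741, yJW1861, yJW1862 and yJW1863, against 366, 300, 307 and 352 RPKM in the replete cells of those strains. The starved and replete values did not overlap, and the change was 0.30 ± 0.07 (log2 ± SE, edgeR quasi-likelihood test, adjusted p = 0.0028). COB mRNA averaged 199 ± 12.5 RPKM in starved and 131 ± 28.3 RPKM in replete cells (SD, n = 4 each). It rose by 0.44 ± 0.10 (edgeR, adjusted p = 0.0023). ATP6 mRNA rose more, by 0.64 ± 0.08 (edgeR, adjusted p = 5.5e-05), although its level differed among strains more than between media. It had 22.2, 48.0, 58.6 and 65.0 RPKM in the starved strains, in the order given above, against 11.8, 27.4, 29.1 and 42.2 RPKM in the replete ones. COX2, COX3 and OLI1 rose by 0.17, 0.30 and 0.31 (edgeR, adjusted p = 0.010, 3.4e-04 and 0.0011), and the COX2 call was lost without yJW1862 (edgeR, adjusted p = 0.11). In all, 6 of 6 tested members passed as higher, where 42.1% of the 5061 genes tested did so, and the median change was 0.31 for the members and 0.03 for all genes. P-values here measure the spread among single samples of 4 related strains, and a rise here is relative to the other mRNAs of the library.

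**Figure D3:**
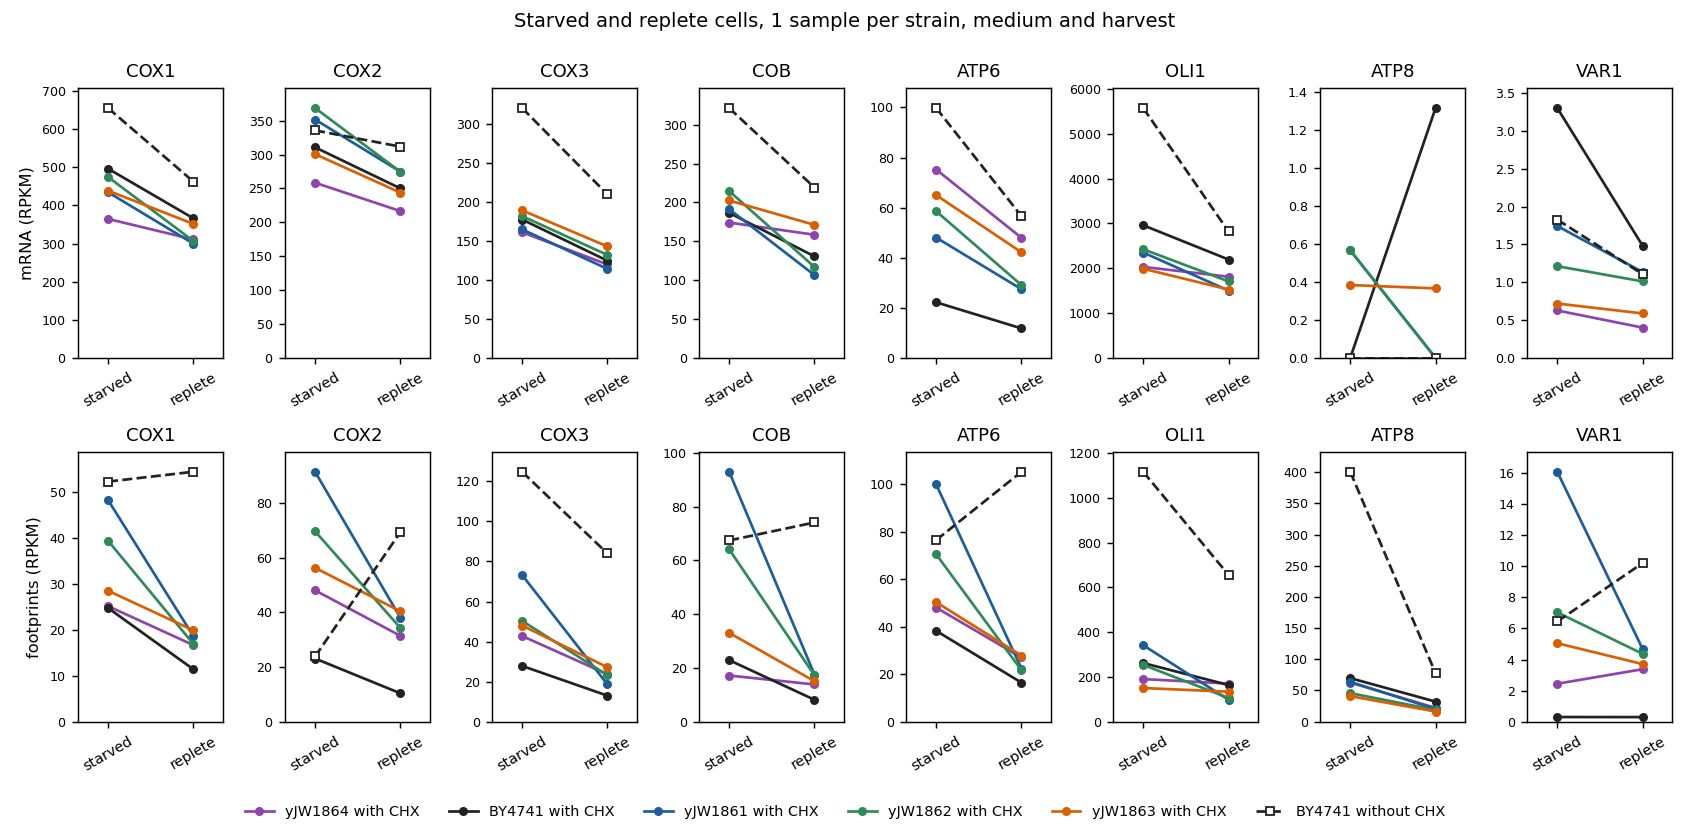
mRNA level (top row) and footprint level (bottom row), in RPKM on linear axes that start at 0, of the 8 mitochondrially encoded genes in starved and replete cells. Each line joins the 2 samples of a strain, filled symbols are samples with CHX and open squares on dashed lines are BY4741 without CHX, and the yJW1861 line for ATP8 mRNA lies under that of yJW1862. With CHX the footprint lines of all genes but VAR1 are higher in the starved sample in every strain, whereas without CHX those of COX1, COX2, COB, ATP6 and VAR1 are lower in the starved sample.

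Footprints of the 6 genes rose too, with a larger fitted change than the mRNA for each gene. COB had 22.9, 92.9, 64.1 and 33.0 footprint RPKM in starved BY4741, yJW1861, yJW1862 and yJW1863, against 8.14, 17.5, 17.2 and 15.0 RPKM in the replete cells. The starved values all lay above the replete ones, and COB footprints rose by 1.45 ± 0.19 (log2 ± SE, edgeR quasi-likelihood test, adjusted p = 6.2e-05). ATP6 had 38.2, 99.8, 70.4 and 50.3 RPKM in the starved cells, against 16.4, 22.3, 21.6 and 27.8 RPKM in the replete cells. The groups did not overlap for ATP6 either, and it rose by 1.19 ± 0.20 (edgeR, adjusted p = 3.1e-04). COX3 averaged 49.9 ± 18.6 RPKM in starved and 20.5 ± 6.10 RPKM in replete cells (SD, n = 4 each) and rose by 0.96 ± 0.18 (edgeR, adjusted p = 7.7e-04). COX1 and COX2 rose by 0.76 and 0.67 (edgeR, adjusted p = 8.4e-04 and 0.0018). COX2 values overlapped between the groups, because BY4741 was low in both media, with 23.1 RPKM starved and 10.4 RPKM replete, while the other strains had 56.4 to 91.6 RPKM starved and 34.3 to 40.4 RPKM replete. OLI1 rose by 0.68 ± 0.23 (edgeR, adjusted p = 0.020) and was higher in 3 of 4 strains after the median of all genes was subtracted. Its call was lost without yJW1861 (edgeR, 0.36, adjusted p = 0.14) and without yJW1862 (edgeR, 0.56, adjusted p = 0.074). In all, 6 of 6 members passed as higher, where 39.9% of all genes did so, and the median change was 0.86 for the members and 0.06 for all genes.

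The size of the rise differed among strains. The median footprint change of the 6 genes, as log2 of starved over replete with the median of all genes subtracted, was 1.62 in yJW1861, 0.92 in yJW1862, 0.79 in BY4741 and 0.28 in yJW1863. In yJW1861 each of the 6 genes passed a 2-fold rise in footprints, where 11.5% of 4874 genes did so. In yJW1863 the changes ran between -0.23 for OLI1 and 0.74 for COB. These differences rest on 1 pair of samples per strain and were not tested.

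TE rose for 3 of the 6 genes, where 15.8% of all genes passed as higher. COB TE had 0.123, 0.486, 0.299 and 0.163 in starved BY4741, yJW1861, yJW1862 and yJW1863, against 0.0623, 0.165, 0.148 and 0.0879 in the replete cells. The groups overlapped across strains, while within each strain the starved value was the higher, and COB TE rose by 0.99 ± 0.26 (log2 ± SE, edgeR quasi-likelihood test of the interaction of medium and library, adjusted p = 0.0091). COX3 TE rose by 0.64 and COX2 TE by 0.47 (edgeR, adjusted p = 0.028 and 0.037). COX1 (0.43, adjusted p = 0.083), ATP6 (0.52, adjusted p = 0.12) and OLI1 (0.34, adjusted p = 0.35) did not pass edgeR's test after Benjamini-Hochberg adjustment. The number of TE calls depended on single strains, with 1 call (COB) without yJW1862, 2 without BY4741, 2 without yJW1861 and 4 without yJW1863. The 15.8% is from the fit to all 4 strains and is not the share of all genes in these refits.

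ATP8 and VAR1 missed the mRNA minimum and were tested only with no minimum. ATP8 footprints had 69.8, 63.8, 45.7 and 40.9 RPKM in starved BY4741, yJW1861, yJW1862 and yJW1863 (23 to 78 reads), against 32.1, 20.2, 18.7 and 16.2 RPKM in the replete cells (31 to 56 reads). They were higher in every starved sample than in every replete one, with a change of 1.03 ± 0.22 (edgeR with no minimum, adjusted p = 0.0015). VAR1 footprints had 0.30, 16.1, 7.04 and 5.05 RPKM in the starved strains, against 0.29, 4.68, 4.37 and 3.71 RPKM in the replete ones. BY4741 thus had 2 and 8 VAR1 footprint reads where the other strains had 54 to 147, and the change of 0.64 missed the threshold (edgeR with no minimum, adjusted p = 0.066).

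Genes of the nucleus that work with these 8 were described from lists. Most subunits of complexes IV and III passed as higher in footprints, as 39.9% of all genes did. Of the 9 nuclear complex IV genes tested, 8 passed as higher in footprints and 6 as higher and 1 as lower in mRNA. COX7, a small subunit, rose by 1.21 in footprints and 0.46 in mRNA (edgeR, adjusted p = 2.1e-06 and 1.1e-04), whereas COX4 mRNA fell by 0.44 (edgeR, adjusted p = 2.5e-04). Of the 8 complex III genes tested, 6 passed as higher in footprints, among them CYT1 (0.60) and the Rieske protein gene RIP1 (0.42), while the core protein gene COR1 gave -0.17 (edgeR, adjusted p = 0.16). ATP synthase genes moved both ways, with 7 higher and 4 lower of 15 in footprints, and ATP1 and ATP2 of the catalytic head changed by -0.32 and -0.60 (edgeR, adjusted p = 0.031 and 0.0024). As lower, 38.1% of all genes passed in mRNA, 36.1% in footprints and 25.3% in TE.

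Of the 17 genes for activators of the mitochondrial mRNAs, 13 passed as higher in mRNA, where 42.1% of all genes did. In footprints 8 passed as higher, a share near the 39.9% of all genes, and the median change of the 17 was 0.19. CBS1, an activator of COB, rose by 1.27 in footprints and 0.89 in mRNA (edgeR, adjusted p = 2.6e-05 and 1.5e-05), and CBS2, also an activator of COB, rose by 0.87 and 0.31. The 3 activators of COX3 rose in footprints, PET54 by 1.12, PET122 by 0.99 and PET494 by 0.60. AEP3, which acts on the ATP6 and ATP8 mRNA, rose by 1.18 in footprints and ATP22, an activator of ATP6, by 0.87. The COX1 activators PET309 and MSS51 gave 0.02 and -0.29 in footprints (edgeR, adjusted p = 0.90 and 0.074), and PET111, the COX2 activator, gave 0.13 (edgeR, adjusted p = 0.56). Of the 17, CBP1, CBP3, CBP6, AEP1, AEP2, ATP25 and SOV1 are not given singly, so the genes named do not stand for the list. Of the 12 genes tested that handle mitochondrial RNA, 1 passed as higher and 6 as lower in footprints, where 36.1% of all genes passed as lower. In TE, 0 passed as higher and 5 as lower, where 25.3% of all genes passed as lower. RPO41, the mitochondrial RNA polymerase, fell by 0.89 in footprints and by 0.92 in TE (edgeR, adjusted p = 4.9e-06 and 1.0e-05), with an mRNA change of 0.01. MSS116, an RNA helicase needed for splicing of mitochondrial introns, fell by 1.28 in footprints. Of 76 mitochondrial ribosomal protein genes, 5 passed as higher and 34 as lower in footprints, and the median change was -0.25.

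In the libraries labelled yJW1864, the fitted starvation changes of these genes were smaller than in the 4 strains, but no difference passed edgeR's test. COB footprints had 17.2 RPKM in starved and 13.8 RPKM in replete yJW1864, and COX3 had 42.8 RPKM starved and 23.7 RPKM replete. The change of COB in yJW1864 minus that in the 4 strains was -1.30 ± 0.42 in footprints (edgeR interaction, adjusted p = 0.079) and -0.47 ± 0.22 in mRNA (edgeR, adjusted p = 0.18). ATP8 had 62.8 footprint RPKM in starved yJW1864 (34 reads) and 22.0 RPKM in replete yJW1864 (31 reads), and VAR1 had 2.44 RPKM starved (27 reads) and 3.38 RPKM replete (97 reads). Neither passed as different from the 4 strains by edgeR with no minimum (0.28 and -1.30, adjusted p = 0.80 and 0.23). The differences of all 6 tested members were negative in mRNA, footprints and TE. By edgeR, 0 of 6 passed in mRNA (1 at an unadjusted p under 0.05, 0 by DESeq2), 0 of 6 in footprints (1 unadjusted, 1 by DESeq2) and 0 of 6 in TE (0 unadjusted, 0 by DESeq2). Of all 5058 genes, 17.1% passed in mRNA, 12.9% in footprints and 3.14% in TE by edgeR. A single pair of samples stood behind yJW1864, so these intervals are wide.

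CHX was then compared with no CHX in BY4741, with 1 sample on each side and no replicate check. In RPKM, footprints of all 8 genes were lower with CHX in both media. The median gene was lower too, with a log2 footprint ratio of -0.74 over 4826 genes in starved cells and -0.51 over 4702 genes in replete cells. In starved cells COX3 had 27.8 RPKM with CHX and 125 RPKM without, and OLI1 had 262 and 1116 RPKM. COX2 had 23.1 RPKM with CHX and 23.9 RPKM without, and its centred log2 ratio (after subtraction of the median of all genes) of 0.69 (0.33 to 1.06) was the only positive one of the 6. The median of the 6 was -0.58, and 2 of 6 (COX3 and OLI1) were past 2-fold lower, where 4.5% of 4826 genes were. ATP8 had 69.8 RPKM with CHX (23 reads) and 401 RPKM without (134 reads).

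In replete cells the footprint differences were larger and shared by all 6 genes. COX1 footprints had 11.4 RPKM with CHX (547 reads) and 54.5 RPKM without (477 reads). COX2 had 10.4 RPKM with CHX and 69.4 RPKM without, COX3 13.0 and 84.0 RPKM, COB 8.14 and 74.1 RPKM, ATP6 16.4 and 105 RPKM, and OLI1 164 and 656 RPKM. The 6 centred log2 ratios ran between -2.67 (COB, counting interval -2.89 to -2.46) and -1.49 (OLI1), with a median of -2.17. Each of the 6 was past 2-fold lower, where 3.66% of 4702 genes were. VAR1 had 0.29 RPKM with CHX (8 reads) and 10.2 RPKM without (51 reads), a centred log2 ratio of -4.61 with an interval of -5.90 to -3.52. VAR1 was not low in the other CHX-treated strains, where it had 3.38 to 4.68 RPKM in replete cells. The other strains with CHX also had higher footprint levels of COX1, COX2, COX3, COB and ATP6 in replete cells than BY4741 with CHX, and lower ones than BY4741 without CHX.

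**Figure D4:**
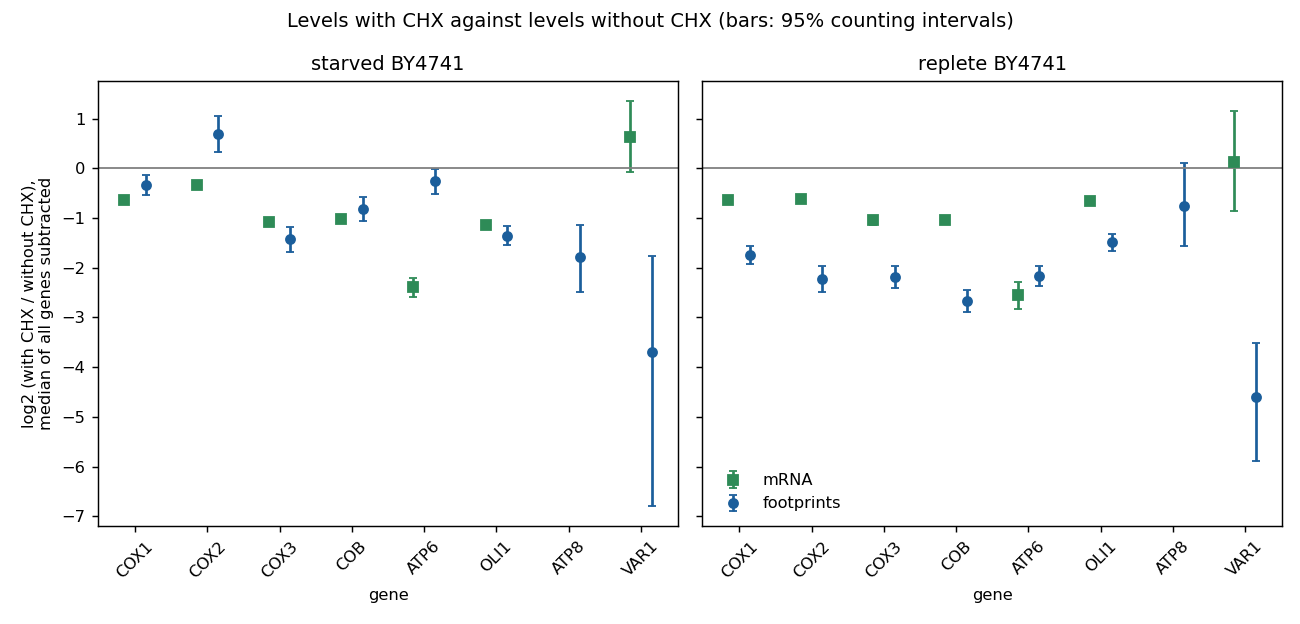
log2 ratio of the level with CHX over the level without CHX in starved (left) and replete (right) BY4741, with the median of all genes subtracted, for mRNA (squares) and footprints (circles), from 1 sample on each side. Bars are 95% counting intervals, which cover counting error only, and ATP8 mRNA has no point because it had 0 or 1 read. In starved cells the COX2 footprint value lies above 0 at 0.69, and in replete cells all 8 footprint values lie below 0.

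The mRNAs of the 6 genes with enough reads were lower with CHX as well, in both media. The median centred log2 ratio was -1.05 in starved and -0.85 in replete cells. ATP6 mRNA stood out with 22.2 RPKM with CHX (263 reads) and 99.8 RPKM without (1196 reads) in starved cells, a centred log2 ratio of -2.40 (-2.59 to -2.20), the lowest of the 4826 genes compared. In replete cells ATP6 mRNA had 11.8 RPKM with CHX (143 reads) and 56.6 RPKM without (640 reads), a ratio of -2.56. ATP6 mRNA was not as low in the other strains with CHX, which had 27.4 to 47.9 RPKM in replete cells. Past 2-fold lower were 4 of 6 in starved cells (COX3, COB, ATP6 and OLI1), where 0.622% of genes were, and 3 of 6 in replete cells (COX3, COB and ATP6), where 2.25% of genes were. In TE, 2 of 6 were past 2-fold higher with CHX in starved cells (COX2 and ATP6), where 5.95% of genes were, and 4 of 6 were past 2-fold lower in replete cells, where 8.32% of genes were.

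Starvation was also compared with replete growth in BY4741 without CHX, as 1 pair of samples. In BY4741 without CHX, COX2 footprints had 23.9 RPKM in starved cells (132 reads) and 69.4 RPKM in replete cells (281 reads), while COX2 mRNA had 336 RPKM starved and 312 RPKM replete. ATP6 had 76.4 RPKM starved and 105 RPKM replete in footprints, and COX1 had 52.4 RPKM starved and 54.5 RPKM replete. COX3 went up, with 125 RPKM starved and 84.0 RPKM replete, as did OLI1 with 1116 and 656 RPKM and ATP8 with 401 and 77.6 RPKM. Relative to the median of all genes, the 6 footprint changes ran between -2.06 for COX2 and 0.24 for OLI1, and the 6 TE changes between -1.89 for COX2 and -0.29 for COX3.

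The difference between the starvation changes was tested as the change without CHX minus that in the 4 strains with CHX, and a negative value means a lower change without CHX. It was negative for all 6 genes in footprints and passed for COX2, at -2.71 ± 0.35 (log2 ± SE, edgeR interaction, adjusted p = 0.026), where 0.139% of 5042 genes passed as lower. ATP6 (-2.15, adjusted p = 0.079), COB (-2.08, adjusted p = 0.076), COX1 (-1.31, adjusted p = 0.15), COX3 (-0.88, adjusted p = 0.45) and OLI1 (-0.41, adjusted p = 0.82) did not pass edgeR's test. DESeq2 called 3 of the 6. With no minimum, ATP8 gave 0.81 and VAR1 -1.82 (edgeR, adjusted p = 0.63 and 0.32). COX2 also passed in TE, at -2.39 ± 0.37 (edgeR, adjusted p = 0.0041), where 0.218% of genes passed as lower. In mRNA, 0 of 6 passed by edgeR (2 at an unadjusted p under 0.05, 0 by DESeq2), where 5.73% of genes passed in either direction. The COX2 footprint call was lost without yJW1861 (edgeR, -2.59, adjusted p = 0.082), and no gene of the table passed there, whereas 3 members passed without BY4741 with CHX and 4 without yJW1863. The 0.139% is from the main edgeR fit and is not the share of all genes in these refits or by DESeq2. The single pair without CHX is assumed here to vary like the strains with CHX.

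**Figure D5:**
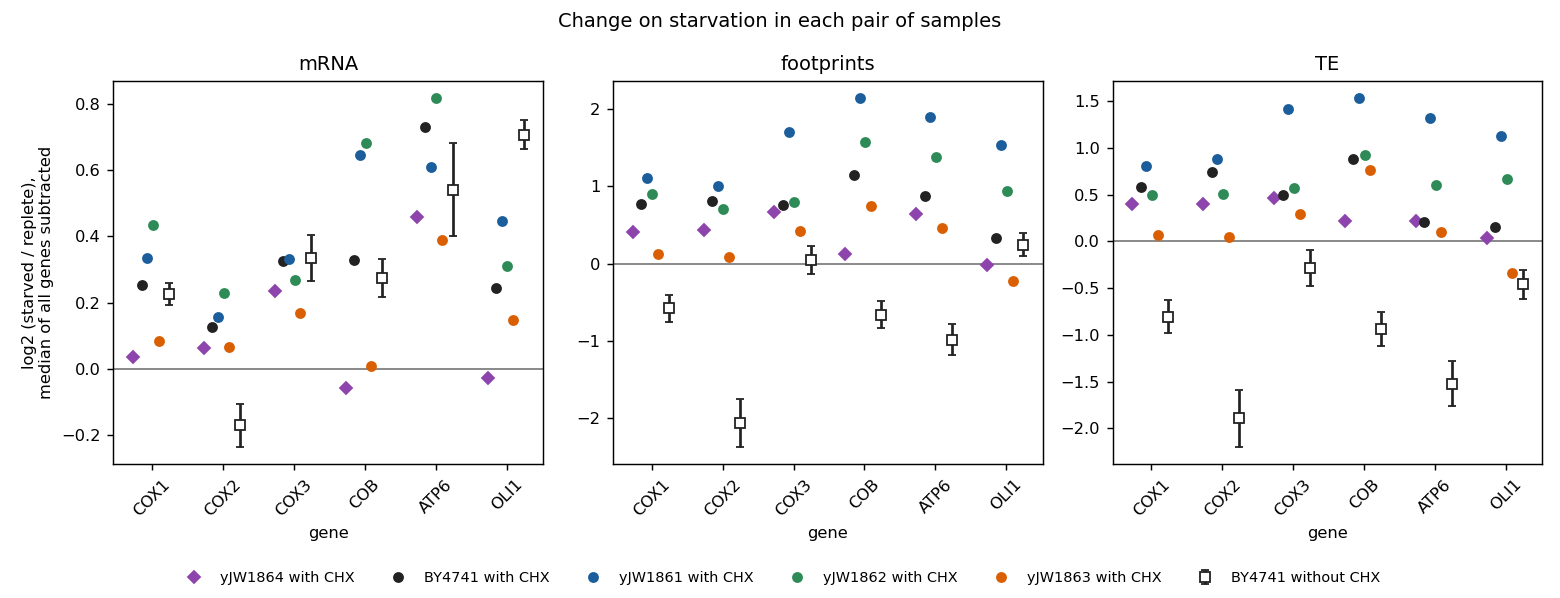
log2 of starved over replete level for mRNA (left), footprints (middle) and TE (right) of 6 mitochondrially encoded genes in each pair of samples, with the median of all genes in that pair subtracted. Diamonds are the libraries labelled yJW1864, circles the 4 strains with CHX and open squares BY4741 without CHX with 95% counting intervals. For footprints and TE of COX1, COX2, COB and ATP6 the open squares lie below 0 and all pairs with CHX lie above it.

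The levels in the chemostat and in batch culture are set side by side without a test, since strain, medium and culture cannot be told apart there. COX1 mRNA had a median of 1663 RPKM over the 16 YMC samples and 400 RPKM over the 12 batch samples, while its footprints had medians of 23.4 and 25.0 RPKM. OLI1 mRNA had medians of 4410 RPKM in the YMC and 2112 RPKM in batch culture, but its footprints had 7.98 RPKM in the YMC and 180 RPKM in batch culture, with no overlap (0.25 to 22.1 and 98.0 to 1116 RPKM). ATP6 footprints had medians of 9.99 RPKM in the YMC and 43.1 RPKM in batch culture. The footprint order changed with it. OLI1 had more footprint RPKM than COX1 in all 12 batch libraries and in 1 of the 16 YMC libraries. These OLI1 values were counted over 123 or 198 bases.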

How the data were processed

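The authors aligned reads to sacCer3 (Bowtie 1.1.2 and TopHat2 2.1.1, per the labels) and deposited, per library, counts and RPKM per gene, with the counted length. mRNA libraries were made from RNA of centrifuged, clarified lysates after rRNA depletion, without poly(A) selection. How fully mitochondrial RNA was recovered in these lysates was not measured. Percent dissolved oxygen and other time-course values (elapsed time in hours) were also deposited by the authors. For the present text, counts were tested in edgeR 4.0.16 (R 4.3.3) with TMM scaling, the quasi-likelihood test, strain as a block and Benjamini-Hochberg adjustment over all genes with a mean of at least 128 mRNA reads and 1 footprint, leaving out 784 dubious ORFs. TE was the interaction of medium and library. DESeq2 1.42.0 was an alternative. Pairs of single samples were compared as log2 RPKM ratios minus the median of all genes. Counting intervals were exact binomial for mRNA and footprints and a normal approximation on the log scale for TE, which is rough at 1 read. The test was checked on simulated counts, drawn with the same fixed dispersion for every gene. Changes of 1 (log2) in the 4 strains were recovered there in 98% of cases for footprints and 90% for TE. The simulated spread was not matched to that of the members, so recovery of their changes could be lower. Recovery was low for the differences that rest on 1 pair. It was 31% and 13% for the difference without against with CHX, and 38% and 10% for yJW1864. A missing call there says little about changes of that size. Calls needed an adjusted p under 0.05.

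Starved and replete samples of a strain were parts of 1 culture, and deviations from the group means correlated within strains (r of 0.56 to 0.80 for mRNA and 0.45 to 0.75 for footprints over 5061 genes), so strain was kept as the block. The numbers of bases left out differed between strains but not within a pair. Gene names came from the files, and 6049 identifiers, including all 8 members, were found in the RefSeq table. NAM1 and MRX14 were not found under those symbols. The members, the partner lists and the tests were chosen with earlier results of these data known. The rule named all 8 members in every comparison, but ATP8 and VAR1, which were under the minimums, are not given in all of them, nuclear partners were named from the lists, and the genes most alike were the 5 with the highest r for each measure, of which 1 is not reported here. Leaving out time point 4, time point 12 or OLI1 was added after seeing the data. No sequences are shown.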

Additional observations from a re-analysis of the deposited data

Results flagged for a closer look

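The response of COX2 to starvation differed between BY4741 without CHX and the 4 strains with CHX, by -2.71 in footprints and by -2.39 in TE on the log2 scale (change without CHX minus change with CHX, edgeR interaction, adjusted p = 0.026 and 0.0041). It is listed because the test of the difference itself passed its threshold. Starved over replete, after subtraction of the median of all genes, COX2 footprints changed by 0.08 to 1.00 in the 4 strains with CHX and by -2.06 in the pair without CHX. That pair had 132 starved and 281 replete COX2 reads, and the part of the harvest method in the difference was not tested. No sample's gap to the other 3 of its group, over the range, exceeded the critical value in the 50 groups of 4 values examined. BY4741 with CHX could still differ from the other 3 strains without exceeding it. Its replete COX2 footprints had 10.4 RPKM against 34.3 to 40.4 RPKM in those strains. Replete VAR1 footprints had 0.29 RPKM against 3.71 to 4.68 RPKM. Replete OLI1 footprints were instead highest in BY4741, at 164 RPKM against 98.0 to 134 RPKM.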

How the results depend on the processing

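Of the recomputed tests of single members, 568 kept their direction and their side of the threshold, 21 gained and 15 lost a call, and 8 changed sign. The pairing of starved and replete samples by strain mattered, since without the strain block 2 of 6 mRNA changes and 1 of 6 TE changes (COB) passed instead of 6 and 3. With library totals in place of TMM, 6 TE changes passed in the 4 strains, but there the median TE change of all genes was 0.33 instead of -0.04, so changes are to be read against it. When 1 strain was left out in turn, members called in the 4 strains numbered 5 to 6 in mRNA, 5 to 6 in footprints and 1 to 4 in TE. For the difference without against with CHX they numbered 0 to 0, 0 to 4 and 1 to 3, and for yJW1864 they numbered 0 to 1, 0 to 1 and 0 to 0. DESeq2 called 3 members in footprints and 3 in TE for the CHX difference and 1 in footprints for yJW1864, and library totals gave 2 in TE for the CHX difference. Shares of all genes called under these alternative settings are not given here, so these counts have no background beside them. None of the reversed values was called. In the mRNA difference without against with CHX they were COX1 0.049 and ATP6 0.019 with library totals, and, leaving out 1 strain in turn, COX1 ran between -0.12 and 0.012 and ATP6 between -0.19 and 0.0049 (positive without yJW1862). For yJW1864, leaving out 1 strain in turn, COX3 footprints ran between -0.44 and 0.014, and TE between -0.20 and 0.038 for COX1, -0.29 and 0.0090 for COX2 and -0.36 and 0.041 for COX3 (positive without yJW1861). The median YMC range of footprints was 3.83 for second highest over second lowest, 5.72 when members were held to the mRNA minimum also in their footprints and 4.82 without time point 12, and that of TE was 4.61 under the same footprint minimum. Without subtraction of the all-gene median, the median CHX ratios were -0.82 (mRNA) and -1.32 (footprints) in starved cells and -0.55 and -2.69 in replete cells, and with no minimum the starved footprint value was -1.10. Except where named, the cause of a shift was not tested. Few reads limited ATP8, VAR1 and the YMC footprints of OLI1, which had 0 to 14 (ATP8) and 1 to 97 (OLI1) footprints per YMC library.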

Other observations

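The reading frames inside the introns of COX1 and COB are listed as genes of their own, and most start at the first base of their host gene (13818 or 36540 on chromosome MT). The spans of these frames overlap those of the host, so the same reads may count toward both. Frame and host are therefore not separate measurements, and how many reads they share was not tested. Footprint levels of the frames were low beside those of the host. BI4, in COB, had a median of 5.02 footprint RPKM in the YMC and 8.61 RPKM in batch culture, while COB itself had 12.4 and 20.2 RPKM. In the 4 strains with CHX, 8 of 9 tested intron and other mitochondrial reading frames passed as higher in footprints on starvation, where 39.9% of all genes did, with BI4 at 1.40 (log2, edgeR, adjusted p = 2.0e-04) and COB at 1.45. AI5_BETA, in COX1, had 33950 mRNA reads but 58 footprints over the whole YMC. SCEI, the intron endonuclease gene of the large mitochondrial ribosomal RNA, went the other way in mRNA, with a fall on starvation of -1.11 (log2 ± 0.10 SE, edgeR, adjusted p = 4.1e-06).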
